A study of Mus musculus with 32 samples.

Results

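The 10 genes described here are the epithelial adhesion genes Cdh1 and Epcam, the epithelial transcription factor gene Grhl2, the mesenchymal structural genes Cdh2 and Vim, and the transition factor genes Zeb1, Zeb2, Snai1, Snai2 and Twist1. They were chosen by gene symbol out of 55450 mouse genes, and each symbol matched 1 row of the count table. All 10 passed the filter on low counts in every comparison.

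In an epithelium, E-cadherin (Cdh1) holds neighbouring cells together at adherens junctions, Epcam is an adhesion glycoprotein of the epithelial surface, and Grhl2 is a transcription factor that activates junction genes. During an epithelial-mesenchymal transition cells lose these products and gain N-cadherin (Cdh2) and the intermediate filament protein vimentin (Vim), and the factors Zeb1, Zeb2, Snai1, Snai2 and Twist1 act in that change by repressing Cdh1, directly or indirectly, with Zeb1 and Grhl2 known to repress each other. The ovarian surface epithelium is known for carrying N-cadherin and vimentin beside its keratins, whereas the oviduct is lined by a columnar epithelium of secretory and ciliated cells rich in E-cadherin and Epcam.

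The data were 32 RNA sequencing libraries of female mice in 10 groups, 26 from tumours harvested at endpoint and 6 from normal tissue. Tumours were either primary (GEMM, grown in the engineered animal, 12 libraries) or allografts (14 libraries). Ovgp1-BPR (3 allografts, 3 GEMM tumours, C57Bl/6) was induced with tamoxifen in mice with Brca1 fl/fl, the transgene K18GT121 Tg/+, which inhibits Rb, Ovgp1-CreERT2 Tg/+, in which the Ovgp1 promoter drives Cre in oviduct secretory cells, and Trp53 KozR172H ki/+. The series description names the Trp53 mutation R172H for this model as well but lists Trp53 fl/fl in its genotype, a conflict that could not be settled here. OSE-BPR (5 allografts, 3 GEMM tumours, FVB) combined Brca1 fl/fl and Trp53 fl/fl with K18GT121 Tg/+, and Cre was delivered by adenovirus under the ovarian bursa, to the surface epithelium. Pax8-BPR (2 allografts, 4 GEMM tumours, C57Bl/6) added Pax8-CreERT2 Tg/+ to those alleles, for tamoxifen induction in oviduct secretory cells. Ad-BPR (4 allografts, 2 GEMM tumours, C57Bl/6) had the alleles of OSE-BPR, with adenoviral Cre placed into the oviducts. Normal oviduct (n = 3) and normal ovary (n = 3) were taken from the same 3 wild-type C57Bl/6 animals. Brca1 fl/fl and K18GT121 Tg/+ are shared by all tumours, OSE-BPR differs from every other group in strain too, and Ovgp1-BPR differs from the others in its Trp53 allele, so model cannot be told apart from strain or from allele in those comparisons. The labels do not tie an allograft to its source tumour, so the spread among allografts may be partly technical.

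Library totals ran from 13987123 to 20514825 assigned counts. Levels are given in CPM (counts scaled to a common library size, with TMM factors over all 32 libraries) to compare libraries, and in TPM, which also divides by gene length, to compare genes. In bulk tissue, fewer cells of a type and less RNA per cell cannot be told apart. Summed TPM of 10 granulosa, theca and luteal markers was 1900, 81.1 and 1080 in normal oviduct replicates 1 to 3, against 13000 to 15100 in normal ovary, and 8 oocyte markers summed to 122, 5.76 and 107 TPM in those oviducts, against 353 to 389 TPM in ovary. Oviduct replicates 1 and 3 therefore carried more ovarian transcripts than replicate 2. Ciliated cell markers (7 genes, 833 to 1190 TPM in oviduct, 254 to 281 TPM in ovary) and the secretory product Ovgp1 (2500 to 6610 TPM in oviduct, 2.34 to 3.41 TPM in ovary) fitted the tissue labels.

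**Figure D1:**
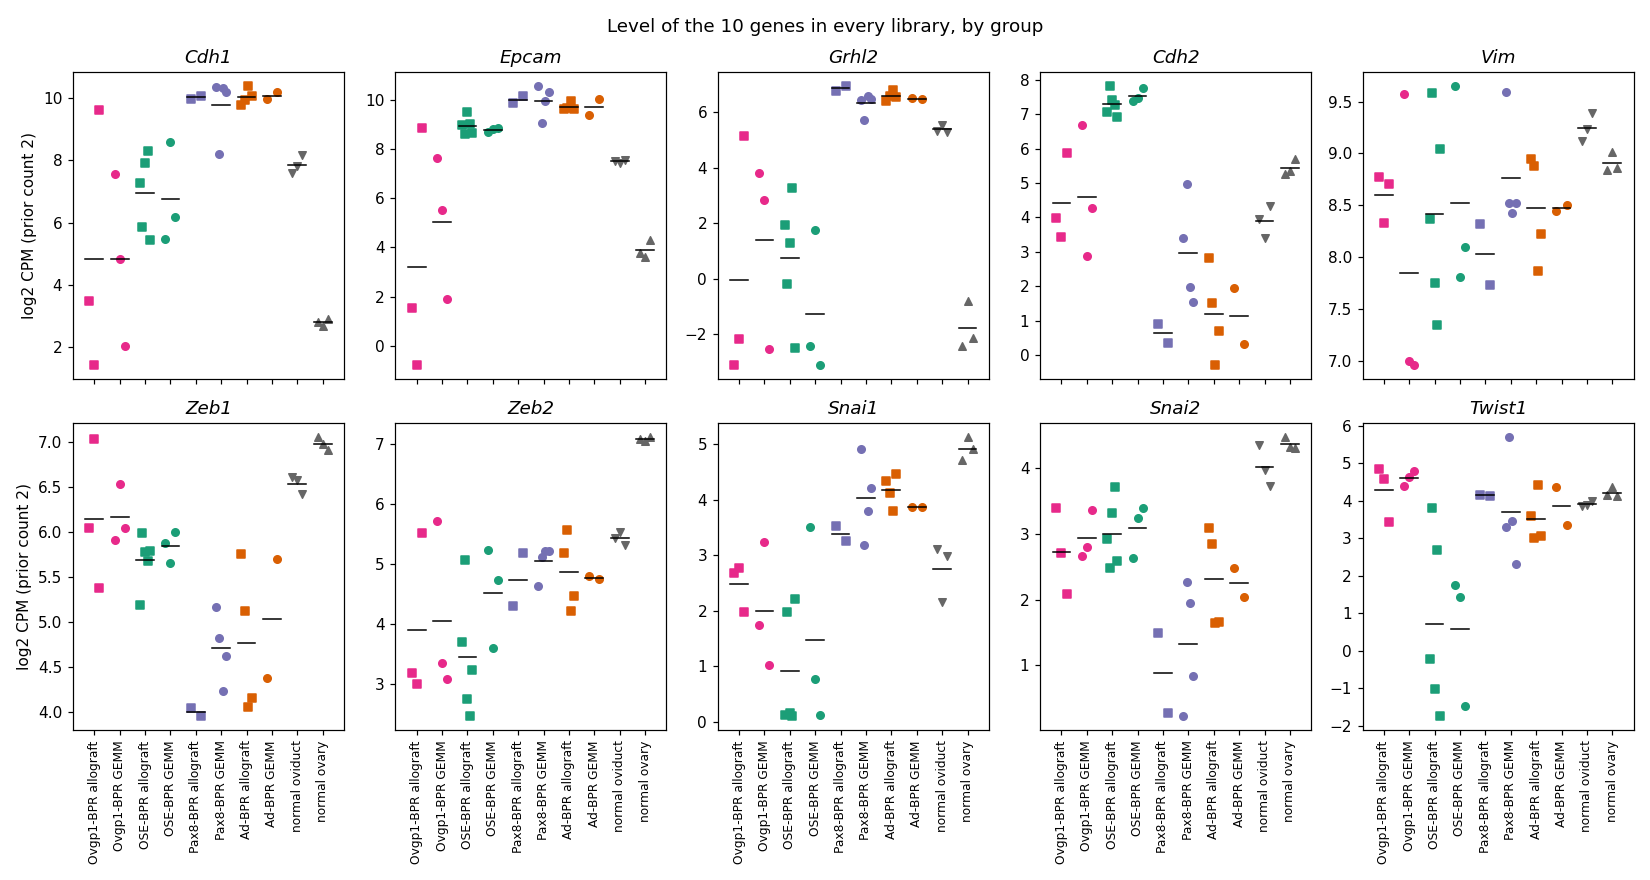
Each panel plots 1 gene in all 32 libraries, as log2 CPM with a prior count of 2 on the vertical axis and the 10 groups on the horizontal axis. Points are libraries (squares for allografts, circles for GEMM tumours, triangles for normal tissue) and lines are group means of log2 CPM. Cdh1, Epcam and Grhl2 lay high in Pax8-BPR and Ad-BPR and scattered widely in Ovgp1-BPR, while Cdh2 was highest in OSE-BPR.

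Normal oviduct and normal ovary differed in 8 of the 10 genes, 4 higher in oviduct and 4 lower (edgeR quasi-likelihood test, Benjamini-Hochberg adjusted p below 0.05, as in all comparisons below unless stated). Of all 17334 genes tested in these tissues, 53% were called, 28.5% higher and 24.5% lower. Cdh1 stood at 192, 228 and 286 CPM in oviduct, against 6.86, 6.29 and 7.39 CPM in ovary, 36.3-fold higher (log2 5.18 ± 0.18 SE, adjusted p = 4.5e-06). Epcam was at 185, 174 and 190 CPM in oviduct and 13.7, 11.9 and 19.4 CPM in ovary, a log2 difference of 3.69 ± 0.18 (adjusted p = 1.2e-05). Grhl2 was at 39.7, 46.8 and 39.4 CPM in oviduct and 0.0693, 0.457 and 0.11 CPM in ovary (log2 7.62 ± 0.35, adjusted p = 1.1e-05). In ovary these Grhl2 values are 1, 8 and 2 counts, and without ovary replicate 2 the difference was 8.79. The 3 epithelial genes thus did not overlap between the tissues, as was so for 9 of the 10 genes in all. The share of all genes without overlap was not counted.

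Of the mesenchymal and transition genes, 4 were lower in oviduct and 1, Vim, was higher. Cdh2 measured 15.3, 10.6 and 20 CPM in oviduct, against 38.5, 40.9 and 51.7 CPM in ovary (log2 -1.43 ± 0.24, adjusted p = 0.0023). Zeb2 was at 43.1, 46.2 and 39.8 CPM in oviduct, against 136, 132 and 139 CPM in ovary (log2 -1.57 ± 0.07, adjusted p = 1.1e-05). Snai1 was at 8.53, 4.37 and 7.79 CPM in oviduct, against 26.1, 34.9 and 29.9 CPM in ovary (log2 -2.05 ± 0.26, adjusted p = 0.00069). None of these 3 genes overlapped between the tissues. Zeb1 fell by 0.36 on the log2 scale in oviduct (adjusted p = 0.0092), and Vim was higher there by 0.43 (adjusted p = 0.012, and 0.051 without ovary replicate 1 or without ovary replicate 3). Snai2 (13.1 to 20.3 CPM in oviduct, 19.7 to 22.2 in ovary, adjusted p = 0.26) and Twist1 (14.4 to 15.8 CPM in oviduct, 17.6 to 20.5 in ovary, without overlap, adjusted p = 0.12) did not pass. Snai2 passed without oviduct replicate 1 (log2 -0.45, adjusted p = 0.032). Twist1 passed by limma on log2(TPM + 0.1) (-0.37, adjusted p = 0.024) and log2(TPM + 1) (-0.35, adjusted p = 0.026), but not by DESeq2. Without oviduct replicates 1 and 3, which hold more ovarian transcripts, oviduct replicate 2 was the only oviduct left. The differences of Cdh2 and Snai1 were then larger, at -1.99 and -2.73 on the log2 scale. In a fit of all 32 libraries, which shares 1 estimate of spread with the tumours, 2 genes were called, Cdh1 and Grhl2. That fit called 2605 of all 20887 genes tested.

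Among tumours, Cdh1 was lower in Ovgp1-BPR and OSE-BPR than in Pax8-BPR and Ad-BPR, by 6.25-fold to 7.7-fold in the 4 fitted comparisons. In the 6 Ovgp1-BPR tumours its lowest, median and highest levels were 2.59, 19.8 and 780 CPM, in the 8 OSE-BPR tumours 43.6, 114 and 385 CPM, in the 6 Pax8-BPR tumours 297, 1130 and 1300 CPM, and in the 6 Ad-BPR tumours 877, 1040 and 1350 CPM. Every OSE-BPR tumour and every Ovgp1-BPR tumour lay below every Ad-BPR tumour. Against Ad-BPR, Cdh1 was lower in Ovgp1-BPR (log2 -2.94 ± 1.01, adjusted p = 0.028) and in OSE-BPR (-2.71 ± 0.93, adjusted p = 0.020). Against Pax8-BPR, the differences were -2.88 ± 1.00 in Ovgp1-BPR (adjusted p = 0.031) and -2.64 ± 0.93 in OSE-BPR (adjusted p = 0.024), with overlap because Pax8-BPR GEMM replicate 2 stood at 297 CPM. These calls were close to the threshold. Against Ad-BPR, the call in Ovgp1-BPR was lost, at adjusted p between 0.052 and 0.067, without Ad-BPR GEMM replicate 1 or 2, Ovgp1-BPR GEMM replicate 2 or 3 or Ovgp1-BPR allograft replicate 1. Against Pax8-BPR it was lost, at 0.058 to 0.072, without Ovgp1-BPR GEMM replicate 2 or 3, Ovgp1-BPR allograft replicate 1 or Pax8-BPR allograft replicate 1 or 2. The calls in OSE-BPR were lost without OSE-BPR GEMM replicate 1 or 3, at 0.053 and 0.057 against Ad-BPR and 0.060 and 0.065 against Pax8-BPR. Ovgp1-BPR and OSE-BPR did not differ in Cdh1 in all tumours (-0.23 ± 0.88, adjusted p = 0.88), but without Ovgp1-BPR allograft replicate 3 the difference was -2.83 (adjusted p = 0.012). Without that tumour Ovgp1-BPR was lower by -5.59 against Ad-BPR and -5.53 against Pax8-BPR, and without Ovgp1-BPR GEMM replicate 1 by -4.04 and -3.97. Without OSE-BPR GEMM replicate 2, OSE-BPR was lower by -3.47 against Ad-BPR and -3.40 against Pax8-BPR.

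Epcam set Ovgp1-BPR apart in another way. Its levels were 2.8, 0.466 and 467 CPM in Ovgp1-BPR allografts 1 to 3 and 200, 45.7 and 3.63 CPM in Ovgp1-BPR GEMM tumours 1 to 3, whereas the other tumours stayed between 394 and 740 CPM in OSE-BPR, 533 and 1550 CPM in Pax8-BPR, and 680 and 1060 CPM in Ad-BPR. Of the 6 Ovgp1-BPR tumours, 5 lay below all 20 others, and the lowest, allograft replicate 2, held 9 counts of Epcam. Epcam was lower in Ovgp1-BPR than in Pax8-BPR (log2 -3.23 ± 0.97, adjusted p = 0.014) and in Ad-BPR (-2.93 ± 0.96, adjusted p = 0.023), without overlap. The call against Ad-BPR was lost without Ad-BPR GEMM replicate 2 (adjusted p = 0.064) or Ovgp1-BPR GEMM replicate 2 (0.056). Without Ovgp1-BPR allograft replicate 3 the differences were -6.55 against Pax8-BPR and -6.23 against Ad-BPR, and without Ovgp1-BPR GEMM replicate 1 they were -4.11 and -3.80. Against OSE-BPR the fitted difference of -2.08 ± 0.89 did not pass (adjusted p = 0.084), but it was -5.33 (adjusted p = 3.2e-05) without Ovgp1-BPR allograft replicate 3 and -2.95 (adjusted p = 0.030) without Ovgp1-BPR GEMM replicate 1. With all tumours kept it passed by DESeq2 (-2.07, adjusted p = 0.027) and by limma on log2(TPM + 0.1) (-4.74, adjusted p = 0.0012) and log2(TPM + 1) (-4.43, adjusted p = 0.001). By edgeR it did not pass without the filter on low counts or in a fit of the 2 models alone. OSE-BPR tumours, low in Cdh1 and Grhl2, thus had Epcam levels with a median of 464 CPM, all 8 above the 3 normal oviducts. Against Ad-BPR and Pax8-BPR, Epcam in OSE-BPR did not pass (-0.85 ± 0.86, adjusted p = 0.43, and -1.15 ± 0.86, adjusted p = 0.28), but did so in fits of the 2 models alone (-0.88, adjusted p = 0.00082, and -1.17, adjusted p = 0.0016).

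Grhl2, the activator of junction genes, was low in OSE-BPR, where the 8 tumours ran from 0 through a median of 1.54 to 9.53 CPM. It ranged from 0 through 3.6 to 35.3 CPM in Ovgp1-BPR, from 53 through 93.4 to 124 CPM in Pax8-BPR, and from 84.8 through 92.8 to 110 CPM in Ad-BPR. No tumour of Ovgp1-BPR or OSE-BPR reached the lowest of Pax8-BPR or Ad-BPR. OSE-BPR fell by 5.66 ± 1.24 on the log2 scale against Pax8-BPR (adjusted p = 0.00095) and by 5.60 ± 1.24 against Ad-BPR (adjusted p = 0.00097). Ovgp1-BPR was lower by -3.42 ± 1.17 against Pax8-BPR (adjusted p = 0.027) and -3.36 ± 1.16 against Ad-BPR (adjusted p = 0.030). Leaving out Ovgp1-BPR GEMM replicate 2 or 3, Ovgp1-BPR allograft replicate 2 or Pax8-BPR allograft replicate 1 or 2 ended the call against Pax8-BPR (adjusted p 0.051 to 0.057), and leaving out Ovgp1-BPR GEMM replicate 2 or 3, Ovgp1-BPR allograft replicate 1 or 2 or Ad-BPR GEMM replicate 1 or 2 ended that against Ad-BPR (0.051 to 0.062). Ovgp1-BPR and OSE-BPR did not pass (2.24 ± 1.07, adjusted p = 0.12), except without OSE-BPR GEMM replicate 2 (4.66, adjusted p = 0.035). Without that tumour OSE-BPR was lower by -8.09 against Pax8-BPR and -8.02 against Ad-BPR, and without Ovgp1-BPR allograft replicate 3 Ovgp1-BPR was lower by -7.24 against Pax8-BPR and -7.17 against Ad-BPR. Grhl2 reads cannot be told apart from those of the genes Gm16136, Gm16137 and Gm16138, which overlap it, where counting ignored strand, and the sources used here do not say whether it did.

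The stretch before the Epcam start is shown because this gene marked the Ovgp1-BPR tumours, and because letters that ZEB and SNAI factors (E-box) and GRHL factors are known to bind occur in it. It is the RefSeq sequence of GRCm38.p6, chr17:87635729-87635978, plus strand, 250 bases that end just before the transcript start. Capitals mark CACCTG or its reverse complement CAGGTG, and ACCGGT, which is its own reverse complement.
Epcam: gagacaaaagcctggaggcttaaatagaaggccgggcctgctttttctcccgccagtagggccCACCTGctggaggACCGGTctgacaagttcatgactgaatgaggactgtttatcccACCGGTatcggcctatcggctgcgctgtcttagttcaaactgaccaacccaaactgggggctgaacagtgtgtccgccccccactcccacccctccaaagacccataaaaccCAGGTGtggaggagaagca
The E-box letters lie 187 and 19 bases before the start, and ACCGGT lies 174 and 131 bases before it, with no overlap between the motifs. Among 32851 mouse promoters of the same length, searched on both strands, 17.2% held the E-box letters and 1.86% held ACCGGT. At least 2 matches were found for the E-box in 2.06% and for ACCGGT in 9 promoters (0.0274%). The table of promoters held 5 of the 10 genes (Epcam, Vim, Zeb2, Snai1 and Twist1), and of the other 4, Snai1 held 1 E-box match, 126 bases before its start, and none held ACCGGT. These are matches of letters, and no binding was measured. The motifs were chosen with this sequence known.

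Cdh2 was highest in OSE-BPR, with 122, 168 and 226 CPM as lowest, median and highest of 8 tumours, and reached 7.26, 17.4 and 102 CPM in Ovgp1-BPR, 1.17, 3.31 and 31 CPM in Pax8-BPR, and 0.708, 2.11 and 6.98 CPM in Ad-BPR. No tumour of another model reached the lowest OSE-BPR tumour. OSE-BPR rose above Pax8-BPR by 5.36 ± 0.85 (adjusted p = 5e-05) and above Ad-BPR by 6.02 ± 0.89 on the log2 scale (adjusted p = 2.2e-05). Ovgp1-BPR was in between, below OSE-BPR (-2.31 ± 0.64, adjusted p = 0.010) and above Pax8-BPR (3.04 ± 0.75, adjusted p = 0.0041) and Ad-BPR (3.70 ± 0.78, adjusted p = 0.0013). These 5 calls stood in each fit that left out 1 library, but without Ovgp1-BPR GEMM replicate 1, at 102 CPM, the 3 differences of Ovgp1-BPR were -3.16, 2.19 and 2.85 against OSE-BPR, Pax8-BPR and Ad-BPR. Gm15485 overlaps Cdh2 in the annotation, with the same limit on strand.

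Set side by side per length, Cdh1 exceeded Cdh2 in 6 of 6 Ad-BPR and 6 of 6 Pax8-BPR tumours, with a median TPM ratio of Cdh1 to Cdh2 of 502 in Ad-BPR and 366 in Pax8-BPR. The exception within Pax8-BPR was GEMM replicate 2, with a ratio of 8.96 against 113 or more in the other 5. In OSE-BPR, Cdh1 exceeded Cdh2 in 4 of 8 tumours (ratio 0.242 to 2.13, median 0.717). In Ovgp1-BPR it did so in 3 of 6, with ratios of 0.694, 0.223 and 12.9 in allografts 1 to 3 and 1.81, 4.04 and 0.198 in GEMM tumours 1 to 3. Normal oviduct held ratios of 11.7, 20.8 and 13, and normal ovary 0.179, 0.144 and 0.145. The 2 Ovgp1-BPR tumours lowest in Cdh1, at 1.09 and 1.80 TPM, held 4.88 and 9.09 TPM of Cdh2, less than the 56.2 to 106 TPM of OSE-BPR. Cdh2 was at 15.4 to 21.8 TPM in normal ovary and 4.14 to 8.1 TPM in normal oviduct. It was at 0.32 to 3.09 TPM in Ad-BPR and 0.43 to 13.4 TPM in Pax8-BPR.

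**Figure D2:**
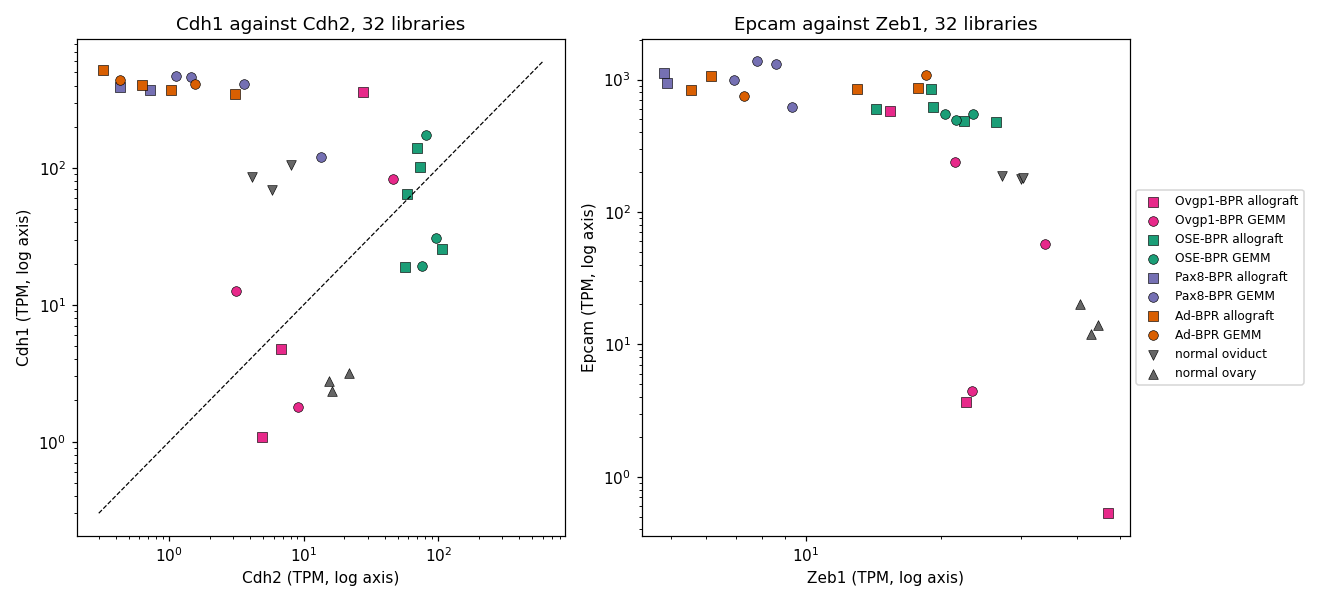
Each point is 1 library, with TPM on log axes. The left panel sets Cdh1 (vertical) against Cdh2 (horizontal), with a dashed line where the genes are equal, and the right panel sets Epcam (vertical) against Zeb1 (horizontal). Pax8-BPR and Ad-BPR lie at the upper left of the left panel, except Pax8-BPR GEMM replicate 2, and at the top of the right panel. OSE-BPR sits around the dashed line, and the 6 Ovgp1-BPR tumours are spread from 1.09 to 356 TPM of Cdh1 and from 0.53 to 578 TPM of Epcam.

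The lowest, median and highest levels of Vim were 125, 369 and 762 CPM in Ovgp1-BPR, 162, 303 and 805 CPM in OSE-BPR, 212, 355 and 771 CPM in Pax8-BPR, and 233, 355 and 492 CPM in Ad-BPR, all overlapping one another. No pair of models passed, and the test of any difference between the 4 models gave an adjusted p of 0.94. The highest library of each of OSE-BPR, Pax8-BPR and Ovgp1-BPR was GEMM replicate 1, at 805, 771 and 762 CPM. Per length Vim was far above the transition factors, with medians of 499, 400, 386 and 434 TPM in Ovgp1-BPR, OSE-BPR, Pax8-BPR and Ad-BPR. Vim is also abundant in fibroblasts, leukocytes and endothelium, whose marker levels are given further on.

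Zeb1, the repressor paired with Grhl2, had its highest median in Ovgp1-BPR, at 41.3, 65.5 and 130 CPM (lowest, median, highest), with 36.3, 54.8 and 63.9 CPM in OSE-BPR, 15.4, 21.5 and 35.6 CPM in Pax8-BPR, and 16.4, 27.5 and 54 CPM in Ad-BPR. Ovgp1-BPR and OSE-BPR overlapped and their difference did not pass (log2 0.47 ± 0.29, adjusted p = 0.23). Every tumour of Ovgp1-BPR and of OSE-BPR exceeded every Pax8-BPR tumour. Zeb1 rose in Ovgp1-BPR against Pax8-BPR by 1.88 ± 0.33 (adjusted p = 0.00031) and against Ad-BPR by 1.19 ± 0.32 (adjusted p = 0.0075, and 0.076 without Ad-BPR GEMM replicate 1). It rose in OSE-BPR against Pax8-BPR by 1.41 ± 0.31 (adjusted p = 0.0011). OSE-BPR against Ad-BPR did not pass (0.72 ± 0.30, adjusted p = 0.055) but did so without Ad-BPR GEMM replicate 2 (1.08, adjusted p = 0.026), Ad-BPR allograft replicate 1 (0.93, adjusted p = 0.012) or OSE-BPR allograft replicate 1 (0.77, adjusted p = 0.045). With all libraries it passed by DESeq2 (0.69, adjusted p = 0.049) and by limma on log2(TPM + 0.1) (0.98, adjusted p = 0.0082) and log2(TPM + 1) (0.92, adjusted p = 0.0093). By edgeR it did not pass without the filter on low counts or in a fit of only these models. All tumours but 1, Ovgp1-BPR allograft replicate 2 at 130 CPM, stayed below the 120 to 133 CPM of normal ovary.

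Zeb2, the paralog of Zeb1, ran from 7.81 through 9.5 to 52.2 CPM in Ovgp1-BPR, from 5.41 through 12.4 to 37.6 CPM in OSE-BPR, from 19.5 through 35.3 to 37.2 CPM in Pax8-BPR and from 18.4 through 27.2 to 47.3 CPM in Ad-BPR. The models overlapped, and the test of any difference between them gave an adjusted p of 0.51. The TPM ratio of Zeb1 to Zeb2 had a median of 8.83 in Ovgp1-BPR, 4.19 in OSE-BPR, 0.845 in Pax8-BPR and 1 in Ad-BPR, against 2.51 in normal oviduct and 1.2 in normal ovary. In Ovgp1-BPR the 2 tumours with the highest Zeb2, GEMM replicate 1 (52.2 CPM) and allograft replicate 3 (45.7 CPM), were also those with the highest Cdh1, Epcam and Cdh2. Those libraries also had the highest leukocyte marker sums of the model, 462 and 727 TPM over 10 genes against 117 to 229 TPM in the other 4, and the part of leukocytes in the Zeb2 level was not tested. The genes Zeb2os over Zeb2 and Gm10125 over Zeb1 share the limit on strand.

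Snai1 had its lowest median in OSE-BPR, with 0.966, 1.3 and 11.3 CPM as lowest, median and highest, followed by 1.93, 5.05 and 9.33 CPM in Ovgp1-BPR, 8.93, 12.5 and 29.8 CPM in Pax8-BPR and 13.8, 15.9 and 21.9 CPM in Ad-BPR. It thus lay low in the models that were low in Cdh1, the gene it is known to repress. Snai1 fell in OSE-BPR against Ad-BPR by 2.33 ± 0.53 (adjusted p = 0.0013) and against Pax8-BPR by 2.07 ± 0.53 (adjusted p = 0.0032), and in Ovgp1-BPR against Ad-BPR by 1.64 ± 0.56 (adjusted p = 0.027), all on the log2 scale. Without OSE-BPR GEMM replicate 1, at 11.3 CPM, the differences of OSE-BPR were -3.24 against Ad-BPR and -2.98 against Pax8-BPR. The call of Ovgp1-BPR against Ad-BPR was lost, at adjusted p 0.052 to 0.069, without Ad-BPR GEMM replicate 1 or 2, Ovgp1-BPR GEMM replicate 1 or 3 or Ovgp1-BPR allograft replicate 3. Ovgp1-BPR against Pax8-BPR did not pass (-1.38 ± 0.55, adjusted p = 0.056), but passed without Ovgp1-BPR GEMM replicate 2 (-1.84, adjusted p = 0.023) or Pax8-BPR GEMM replicate 2 (-1.49, adjusted p = 0.044). With all libraries of the models it passed by DESeq2 (-1.42, adjusted p = 0.027) and in an edgeR fit of only these models (-1.41, adjusted p = 0.035), but not by limma. Ovgp1-BPR against OSE-BPR did not pass (0.68 ± 0.51, adjusted p = 0.33), except without that OSE-BPR tumour (1.60, adjusted p = 0.014).

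Snai2, which encodes Slug, ran the other way from its paralog. Its levels were 4.11, 6.62 and 10.4 CPM in Ovgp1-BPR, 5.44, 8.42 and 13 CPM in OSE-BPR, 1.06, 2.18 and 4.68 CPM in Pax8-BPR and 3.02, 4.74 and 8.45 CPM in Ad-BPR. It rose against Pax8-BPR in Ovgp1-BPR by 1.67 ± 0.42 (adjusted p = 0.0047) and in OSE-BPR by 1.87 ± 0.41 (adjusted p = 0.00098), and all OSE-BPR tumours lay above all Pax8-BPR tumours. The other pairs of models did not pass. Per length, Snai1 exceeded Snai2 in all 12 Pax8-BPR and Ad-BPR tumours, Snai2 exceeded Snai1 in 7 of 8 OSE-BPR tumours, and in Ovgp1-BPR either was higher in 3 of 6.

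Twist1 had its highest median in Ovgp1-BPR, at 10.7, 24.4 and 28.5 CPM, against 0.186, 1.66 and 14 CPM in OSE-BPR, 4.89, 14.3 and 52.3 CPM in Pax8-BPR and 7.93, 11.2 and 21.4 CPM in Ad-BPR. Against OSE-BPR it rose in Ovgp1-BPR by 2.93 ± 0.77 (adjusted p = 0.0079), with 5 of the 6 Ovgp1-BPR tumours above all 8 of OSE-BPR. It fell in OSE-BPR by 2.64 ± 0.78 against Pax8-BPR (adjusted p = 0.0085) and by 2.22 ± 0.77 against Ad-BPR (adjusted p = 0.021). The call against Ad-BPR was lost without Ad-BPR GEMM replicate 1 (0.075) or OSE-BPR GEMM replicate 3 (0.054), given as adjusted p. Without OSE-BPR allograft replicate 2, at 14 CPM, the differences were 3.52 for Ovgp1-BPR against OSE-BPR, -3.23 for OSE-BPR against Pax8-BPR and -2.81 for OSE-BPR against Ad-BPR. Without Pax8-BPR GEMM replicate 2, at 52.3 CPM, OSE-BPR against Pax8-BPR was at -2.05. Ovgp1-BPR did not differ by this test from Pax8-BPR (0.29 ± 0.79, adjusted p = 0.81) or Ad-BPR (0.71 ± 0.80, adjusted p = 0.52).

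**Figure D3:**
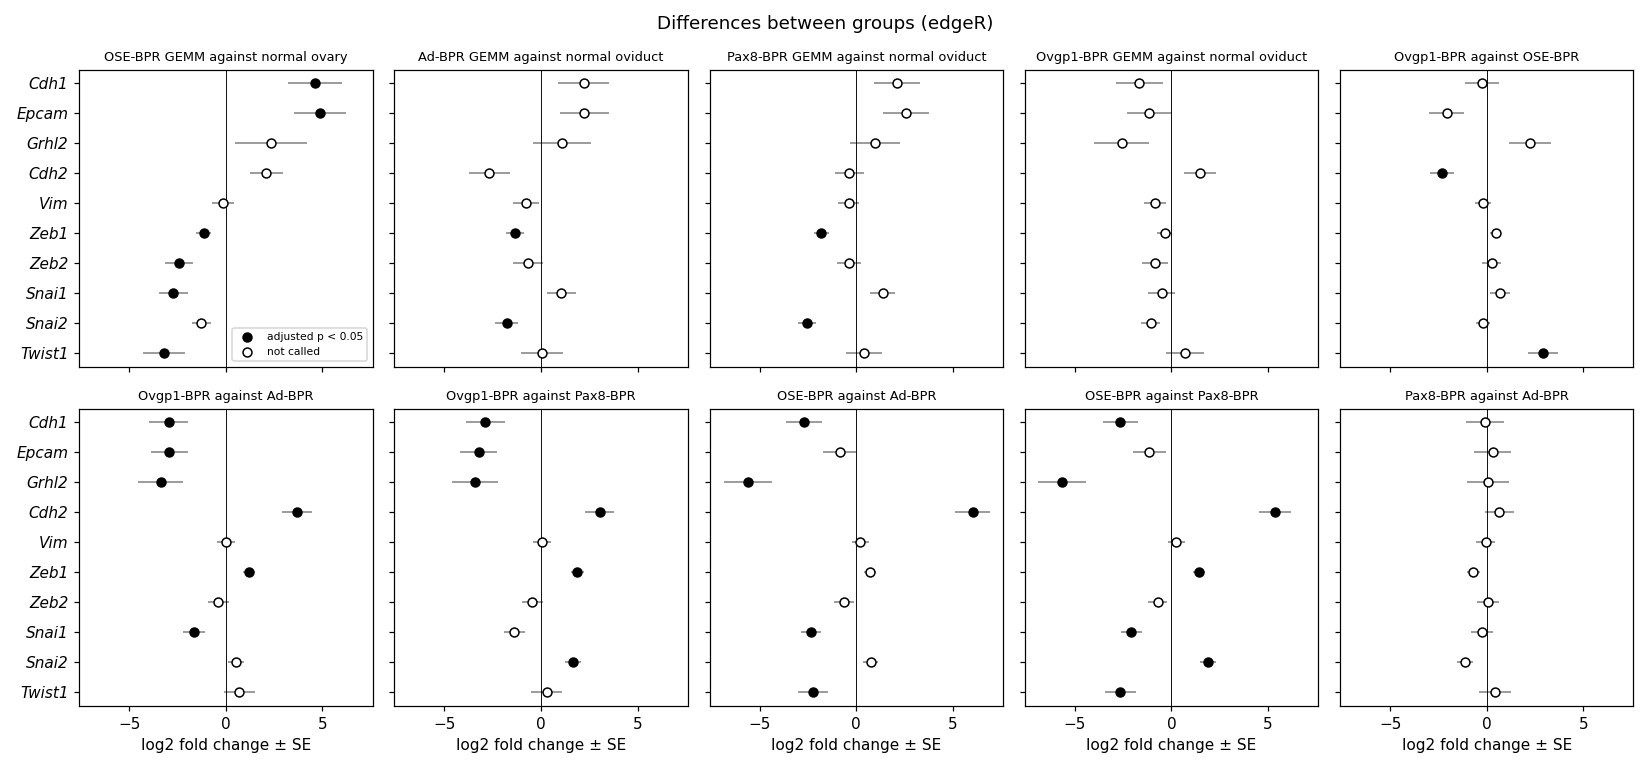
Points are log2 fold changes of the 10 genes with their standard errors, for GEMM tumours against normal tissue (4 panels) and for pairs of models (6 panels), with the group named first over the group named second. Filled points passed an adjusted p of 0.05. Cdh2 and Zeb1 lie to the right and Cdh1, Epcam and Grhl2 to the left in Ovgp1-BPR against Pax8-BPR and Ad-BPR.

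Counted over the 10 genes, Ovgp1-BPR against Pax8-BPR had 3 higher and 3 lower (35.4% of all 20000 genes called, 18.1% higher and 17.2% lower), and Ovgp1-BPR against Ad-BPR 2 higher and 4 lower (34.6% called, 17.7% higher and 16.9% lower). OSE-BPR against Pax8-BPR had 3 higher and 4 lower (47% called, 23.4% higher and 23.6% lower), and OSE-BPR against Ad-BPR 1 higher and 4 lower (49.7% called, 25.1% higher and 24.6% lower). Ovgp1-BPR against OSE-BPR had 1 higher and 1 lower, a share below that of all genes (29.2% called, 15.1% higher and 14.2% lower). Pax8-BPR against Ad-BPR had 0 of 10 called by edgeR (0.065% of all genes) and 2 at an unadjusted p under 0.05 (Zeb1 and Snai2). DESeq2 called 0 there (2.31% of all genes), but it gave no p-value for Cdh1 and Grhl2 in the fit of tumours. Any difference between the 4 models was called for 8 of 10 genes, all but Vim and Zeb2, with 64.1% of all genes called. Of these 8, Epcam (adjusted p = 0.034) was lost without Ad-BPR GEMM replicate 2, Ovgp1-BPR GEMM replicate 2 or 3 or Pax8-BPR allograft replicate 2, at 0.050 to 0.082, and Twist1 (adjusted p = 0.016) without OSE-BPR GEMM replicate 3, at 0.052. The lowest of these, 0.050 for Epcam, was not below the threshold before rounding. For OSE-BPR against Ad-BPR, 3 of 10 were called without OSE-BPR GEMM replicate 3. For Ovgp1-BPR against Ad-BPR, 2 were called without Ad-BPR GEMM replicate 1 or 2, and 3 without Ovgp1-BPR GEMM replicate 2 or 3. For Ovgp1-BPR against OSE-BPR, 4 were called without Ovgp1-BPR allograft replicate 3. In fits of only the 2 models compared, chosen after the data were seen, Ovgp1-BPR lost the calls of Cdh1, Epcam and Grhl2, at adjusted p of 0.083, 0.11 and 0.063 against Ad-BPR and 0.10, 0.092 and 0.070 against Pax8-BPR.

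The Ovgp1-BPR tumours differed among themselves most in the epithelial genes. Cdh1 spanned 302-fold in these 6 tumours, against 8.82-fold in OSE-BPR, 4.39-fold in Pax8-BPR and 1.54-fold in Ad-BPR. Allograft replicate 3 (780 CPM of Cdh1, 467 of Epcam, 35.3 of Grhl2) and GEMM replicate 1 (191, 200 and 13.9 CPM) were highest in all 3 genes. GEMM replicate 2 lay in between (28.6, 45.7 and 7.1 CPM). Allograft replicate 1 (11.1 CPM of Cdh1, 2.8 of Epcam, 0 of Grhl2), GEMM replicate 3 (3.97, 3.63 and 0.0566 CPM) and allograft replicate 2 (2.59, 0.466 and 0.103 CPM) were lowest. In allograft replicate 1 the count of Grhl2 was 0. Both kinds of tumour thus held high and low members.

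The mesenchymal genes of the same tumours did not mirror that order as a group. Zeb1 was lowest in allograft replicate 3 (41.3 CPM) and highest in allograft replicate 2 (130 CPM), the highest and lowest tumours in Cdh1. GEMM replicates 1, 2 and 3 and allograft replicate 1 held 59.9, 92.2, 65.5 and 65.5 CPM of Zeb1. Cdh2, by contrast, was highest in GEMM replicate 1 (102 CPM) and allograft replicate 3 (58.6 CPM), which were high in Cdh1, and lower in GEMM replicates 2 and 3 (7.26 and 19.1 CPM) and allograft replicates 1 and 2 (15.7 and 10.7 CPM). Twist1 was lowest in allograft replicate 3 (10.7 CPM) and between 21.1 and 28.5 CPM in the other 5. The 8 markers of simple and secretory epithelium lay above, around or below their oviduct levels in these tumours. The keratin gene Krt18 was at 245 to 1200 TPM in allografts and 418 to 1200 TPM in GEMM tumours, against 329 to 463 TPM in normal oviduct, and Krt8 at 227 to 1100 TPM and 319 to 773 TPM, against 321 to 357 TPM in oviduct. Krt7 was at 106 to 762 TPM in allografts and 80.9 to 776 TPM in GEMM tumours, against 79 to 147 TPM in oviduct, whereas Krt19 was at 217 to 758 TPM and 195 to 369 TPM, against 530 to 677 TPM in oviduct. Pax8, a factor of oviduct secretory cells, was at 112 to 127 TPM in allografts and 82.4 to 185 TPM in GEMM tumours, against 66 to 90.7 TPM in oviduct. The secretory product Ovgp1 was at 8.03 to 38.4 TPM in allografts and 27.4 to 627 TPM in GEMM tumours, against 2500 to 6610 TPM in oviduct. The mucin gene Muc1 ran from 1.07 to 208 TPM in allografts and from 1.33 to 56.2 TPM in GEMM tumours, against 22.2 to 48 TPM in oviduct, and Wfdc2 from 178 to 830 TPM and 234 to 278 TPM, against 236 to 332 TPM in oviduct.

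The spread was compared with that in the other models through the mean absolute deviation of log2 CPM from the median of the model. For Epcam this was 3.23 over the 6 Ovgp1-BPR tumours, against 0.24 over the 20 tumours of the other models, and a two-sided exact permutation test over all 230230 choices of 6 of the 26 tumours gave p = 4.3e-06, the smallest it can give, and 0.0043 adjusted over 20000 genes. Of those genes, 0.285% were called, and 0.28% were both called and wider in Ovgp1-BPR. With or without a call, 40.2% were wider there. Grhl2 (3.27 in Ovgp1-BPR, 0.93 in the other models, exact p = 0.00038, adjusted p = 0.10) and Cdh1 (2.51 in Ovgp1-BPR, 0.63 in the others, exact p = 0.0011, adjusted p = 0.19) did not pass after adjustment, nor did the other 7 genes. Zeb1 deviated by 0.38 in Ovgp1-BPR and 0.39 in the others, and Twist1 by 0.31 in Ovgp1-BPR and 1.10 in the others (exact p = 0.039, adjusted p = 0.59). The Epcam scatter was known when the genes were chosen, so the test is not independent evidence of it. Epcam kept a difference of 2.24 to 2.91 when any of the 6 Ovgp1-BPR tumours was left out. Its exact p was then 0.0004 to 0.0023 and its adjusted p 0.50 to 0.87, and no gene of 20000 was called. With an odd number of tumours left, the median tumour has a deviation of 0, so the exact p cannot fall below about 0.0004. These fits therefore cannot decide whether the spread rests on a single tumour. With deviations taken from the median of allografts and GEMM tumours separately, its difference was 2.33, its exact p 0.001 and its adjusted p 0.75. Each kind holds 3 Ovgp1-BPR tumours, so the median tumour of each has a deviation of 0. The exact p then cannot fall below about 0.001, so this setting cannot decide whether the spread is wider within a kind. Without OSE-BPR allograft replicate 4, Grhl2 passed as well (difference 2.47, adjusted p = 0.017), giving 2 genes.

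**Figure D4:**
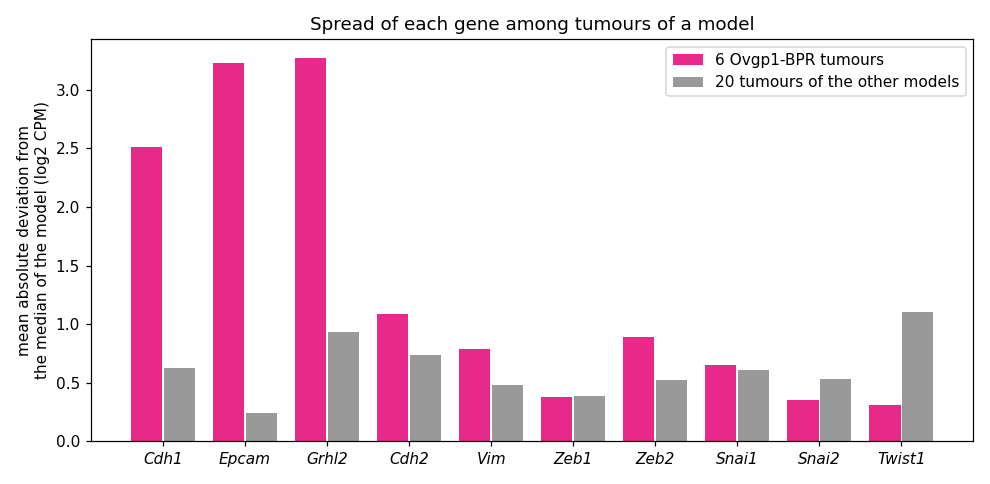
Bars show the mean absolute deviation of log2 CPM from the median of the model for each gene, for the 6 Ovgp1-BPR tumours and for the 20 tumours of the other models. Epcam is 3.23 in Ovgp1-BPR and 0.24 in the others, while the bars of Zeb1 are nearly equal.

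Within Pax8-BPR, GEMM replicate 2 stood apart in several of the genes. It held the lowest Cdh1 (297 CPM), Epcam (533 CPM), Grhl2 (53 CPM) and Snai1 (8.93 CPM) of the 6 tumours, and the highest Cdh2 (31 CPM), Twist1 (52.3 CPM) and Snai2 (4.68 CPM). The other 5 tumours had at least 1010 CPM of Cdh1 and at most 10.4 CPM of Cdh2. In OSE-BPR, GEMM replicate 2 had the most Cdh1 (385 CPM), with 3.24 CPM of Grhl2 and 225 CPM of Vim, and GEMM replicate 1 had 44.1 CPM of Cdh1, 0.067 CPM of Grhl2 and 805 CPM of Vim.

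Primary tumours were next compared with the normal organ named as their origin, in a fit of all 32 libraries. OSE-BPR GEMM tumours against normal ovary had 2 of the 10 genes higher and 4 lower (23.2% of 20887 genes called, 11.6% in each direction). Cdh1 was at 44.1, 385 and 72.7 CPM in OSE-BPR GEMM tumours, against 6.29 to 7.39 CPM in ovary (log2 4.61 ± 1.40, adjusted p = 0.019). Epcam was at 419, 455 and 472 CPM in the tumours, against 11.9 to 19.4 CPM in ovary (4.90 ± 1.35, adjusted p = 0.011). The groups did not overlap in either gene. Zeb1 fell to a mean of 57.5 CPM in the tumours, against 126 CPM in ovary (adjusted p = 0.039), and Zeb2 to 25.3 CPM in the tumours, against 136 CPM in ovary (adjusted p = 0.015). Snai1 fell to 4.61 CPM in the tumours, against 30.3 CPM in ovary (adjusted p = 0.0099), a log2 difference of -2.72, or -4.54 without OSE-BPR GEMM replicate 1. Twist1 fell to 2.04 CPM in the tumours, against 18.6 CPM in ovary (adjusted p = 0.035). Cdh2 averaged 186 CPM in the tumours and 43.7 CPM in ovary and did not pass (2.09 ± 0.85, adjusted p = 0.076) despite groups that did not overlap, as was so for Snai2 (8.62 CPM in tumours, 20.6 CPM in ovary, adjusted p = 0.071). Both passed by DESeq2 (adjusted p = 0.039 and 0.037) and in a fit of the 2 groups alone (0.00096 and 0.013), chosen after the data were seen. By limma on log2(TPM + 0.1) and log2(TPM + 1), Cdh2 passed too (adjusted p = 0.048 and 0.019). Snai1 lost its call in the fit of the 2 groups (0.067). Zeb1 lost its call by limma (0.064 and 0.056) and without the filter (0.054). Granulosa, theca and luteal markers summed to 104 to 362 TPM in these tumours, against 13000 to 15100 TPM in ovary, and their part in the lower values was not tested. Of 10 genes, 1 was called without OSE-BPR GEMM replicate 2 and 3 were called without OSE-BPR GEMM replicate 3 or any of the 3 ovaries. Cdh1 lost its call without OSE-BPR GEMM replicate 2 (3.12, adjusted p = 0.11) or any ovary (0.064 to 0.071), and Zeb1 lost its call without any of the 6 libraries (0.074 to 0.13). Zeb2 lost its call without OSE-BPR GEMM replicate 2 (0.082), Snai1 without OSE-BPR GEMM replicate 2 (0.062) or 3 (0.051), and Twist1 without OSE-BPR GEMM replicate 2 (0.083) or 3 (0.13) or any ovary (0.062 to 0.076).

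Ad-BPR GEMM tumours against normal oviduct had 0 genes higher and 2 lower (24.1% of all genes called, 11.7% higher and 12.3% lower). Zeb1 was at 20.6 and 51.7 CPM in the tumours, against 97.6, 95.2 and 85.3 CPM in oviduct (log2 -1.36 ± 0.46, adjusted p = 0.032), and Snai2 at 5.49 and 3.98 CPM, against 20.3, 15.6 and 13.1 CPM in oviduct (-1.78 ± 0.59, adjusted p = 0.030). Neither gene overlapped between the groups. Both calls were lost without Ad-BPR GEMM replicate 1 (Zeb1 -0.78, adjusted p = 0.35, and Snai2 0.10) and without oviduct replicate 1 (0.077 and 0.083) or 2 (0.074 and 0.054), and that of Snai2 without Ad-BPR GEMM replicate 2 too (0.20). Without that tumour Zeb1 was at -2.22. Cdh1 averaged 1090 CPM in the tumours and 235 CPM in oviduct, and Epcam 872 CPM in the tumours and 183 CPM in oviduct, again without overlap, yet neither passed in the fit that shares 1 estimate of spread over all 10 groups (adjusted p = 0.23 and 0.20). In a fit of these 2 groups alone, chosen after the data were seen, 9 genes were called, Cdh1 (2.22, adjusted p = 0.0013) and Epcam (2.26, adjusted p = 0.0015) among them. That fit called 8483 of all 17965 genes tested. Without oviduct replicates 1 and 3, which leaves oviduct replicate 2 as the only oviduct, the differences were -1.42 for Zeb1 and -1.74 for Snai2.

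Pax8-BPR GEMM tumours against normal oviduct likewise had 0 genes higher and the same 2 lower (32.2% of all genes called, 15.9% higher and 16.3% lower). Zeb1 was at 35.6, 28.1, 18.6 and 24.4 CPM in the tumours (-1.80 ± 0.37, adjusted p = 0.00062) and Snai2 at 1.06, 4.68, 3.76 and 1.67 CPM (-2.54 ± 0.47, adjusted p = 0.00026), all below the 3 oviducts. With oviduct replicates 1 and 3 left out, and so a single oviduct, the differences were -1.82 for Zeb1 and -2.47 for Snai2. These tumours share the oviduct libraries with the Ad-BPR comparison. Cdh1 averaged 1020 CPM in the tumours and 235 CPM in oviduct (adjusted p = 0.18), and Epcam 1090 CPM in the tumours and 183 CPM in oviduct (adjusted p = 0.093). Both passed in the fit of the 2 groups alone (adjusted p = 0.017 and 0.0027), in which 5 genes were called. That fit called 5651 of all 17635 genes tested.

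Ovgp1-BPR GEMM tumours against normal oviduct had 0 genes called by edgeR, 1 at an unadjusted p under 0.05 (Snai2) and 0 by DESeq2, where 32.6% of all genes were called by edgeR and 35.2% by DESeq2. Cdh1 was at 191, 28.6 and 3.97 CPM in these tumours, each below the lowest oviduct at 192 CPM (-1.66 ± 1.23, adjusted p = 0.31). Grhl2 was at 13.9, 7.1 and 0.0566 CPM, against 39.7, 46.8 and 39.4 CPM in oviduct (-2.58 ± 1.44, adjusted p = 0.17). Zeb1 averaged 72.5 CPM in the tumours and 92.7 CPM in oviduct, with overlap (adjusted p = 0.51). Without Ovgp1-BPR GEMM replicate 1, 3 genes were called, Cdh1 (-3.85, adjusted p = 0.050), Vim (-2.27, adjusted p = 0.0044) and Zeb2 (-2.22, adjusted p = 0.021). The value of Cdh1 was below 0.05 before rounding. In the fit of the 2 groups alone 2 were called, Snai2 (-1.04, adjusted p = 0.035) and Twist1 (0.75, adjusted p = 0.022). That fit called 7185 of all 17108 genes tested.

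Allografts were also compared with GEMM tumours of the same model. In each of the 4 models 0 of 10 genes were called by edgeR, as were 0% of all genes, and the allograft effect differed between models for 0 of 10 genes, also with 0% of all genes called. At an unadjusted p under 0.05 there was 1 gene in Pax8-BPR (Cdh2, 1.76 and 1.17 CPM in allografts, against 10.4, 31, 3.82 and 2.79 CPM in GEMM tumours, adjusted p = 0.24) and 0 in the other 3 models and in the test of the effects. DESeq2 called Cdh2 in Pax8-BPR (-3.04, adjusted p = 0.039), where it called 3.65% of all 20000 genes. DESeq2 gave no p-value for Cdh1 and Grhl2 in the fit of tumours, so these 2 genes were not tested by it. Of the other genes described here it called 0 in OSE-BPR (0.06% of all genes), Ad-BPR (0.055%) and Ovgp1-BPR (0.045%). It also called 0 of them in the test of the effects between models (0.13%). With 2 to 5 tumours a group, standard errors of 1.17 to 1.38 on the log2 scale for Cdh1 leave room for large differences.

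Across the 26 tumours, and as a description of points that share models, Epcam was ranked most like Cdh1 among the genes described here, with a Spearman correlation of log2 CPM of 0.93. Cdh1 and Grhl2 gave 0.87, Cdh1 and Zeb1 -0.86, and Grhl2 and Zeb1 -0.87. Zeb2 was at 0.40 with Cdh1 and -0.34 with Zeb1, Snai1 at 0.64 with Cdh1, and Vim at 0.02. Among 10975 genes with a mean of at least 10 CPM in tumours, those most like Epcam were BC004004 (0.937), Eif5a (0.932), Crb3 (0.927), Plek2 (0.910) and Fbxw7 (0.903), of which Crb3 encodes an apical polarity protein. Those most like Zeb1 were Sesn1 and Igfbp6 (both 0.928), Fbxo2 (0.921), Amigo2 (0.915) and Snhg18 (0.912).

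The wider set of epithelial regulators and effectors, 22 genes such as the splicing factors Esrp1 and Esrp2 and the junction genes Marveld3 and Lsr, held more lower than higher calls in Ovgp1-BPR and OSE-BPR against the other models. In Ovgp1-BPR against Pax8-BPR 0 were higher and 20 lower (18.1% of all genes higher and 17.2% lower; median log2 -2.81, against -0.03 over all genes), led by Grhl3 (-5.37 ± 1.12, adjusted p = 0.0012) and Rab25 (-4.07 ± 1.20, adjusted p = 0.013). In Ovgp1-BPR against Ad-BPR 1 was higher and 15 lower (17.7% and 16.9% of all genes; median -2.39, against 0.01). In OSE-BPR against Pax8-BPR 1 was higher and 17 lower (23.4% and 23.6% of all genes; median -3.31, against 0.01), and against Ad-BPR 2 were higher and 17 lower (25.1% and 24.6%; median -3.29, against 0.04). Between Ovgp1-BPR and OSE-BPR 5 were higher and 3 lower (15.1% and 14.2%; median 0.56, against 0.01). Lsr, an angulin of tricellular junctions, rose in Ovgp1-BPR against Ad-BPR (log2 0.90) and in OSE-BPR against Pax8-BPR (1.35) and Ad-BPR (1.85), with Grhl3 (3.77 ± 1.09) beside it in OSE-BPR against Ad-BPR. Their summed TPM in Ovgp1-BPR was 619, 450 and 2070 in allografts 1 to 3 and 1370, 844 and 744 in GEMM tumours 1 to 3, the same tumours high as for Cdh1. In normal oviduct against normal ovary 20 were higher and 0 lower (28.5% and 24.5% of all genes), and in OSE-BPR GEMM tumours against ovary 10 were higher and 0 lower (11.6% in each direction).

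Of 20 other mesenchymal factors and effectors, 1 was higher and 15 lower in OSE-BPR against Ad-BPR (25.1% of all genes higher and 24.6% lower; median -2.34, against 0.04 over all genes). In OSE-BPR against Pax8-BPR 1 was higher and 11 lower (23.4% and 23.6% of all genes; median -2.15, against 0.01). Ovgp1-BPR against Ad-BPR had 1 higher and 9 lower (17.7% and 16.9% of all genes; median -0.80, against 0.01), and Ovgp1-BPR against Pax8-BPR 2 higher and 7 lower (18.1% and 17.2%; median -0.40, against -0.03). Between Ovgp1-BPR and OSE-BPR, 5 were higher and 2 lower (15.1% and 14.2%; median 0.64, against 0.01), with the homeobox gene Prrx1 (4.25 ± 0.59, adjusted p = 3.3e-05) and the fibronectin gene Fn1 (3.13 ± 0.63, adjusted p = 0.0011) as the largest rises. The matrix glycoprotein gene Tnc (-7.09 ± 1.06) and Twist2 (-4.97 ± 0.90) fell most in OSE-BPR against Ad-BPR, and the receptor gene Axl was higher there (1.49 ± 0.21). Snai3, a relative of Snai1, fell in Ovgp1-BPR against Ad-BPR (-5.66 ± 0.78) and Pax8-BPR (-5.91 ± 0.78). Several of these genes are also made by fibroblasts, and the 10 fibroblast markers summed to 760 to 1470 TPM in Ovgp1-BPR, 229 to 852 TPM in OSE-BPR, 1870 to 4850 TPM in Pax8-BPR and 3130 to 7950 TPM in Ad-BPR, with none of them at 0 across a group. Their part in the lower values was not tested.

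Of 12 other cadherins, 11 were tested among tumours, and members moved in both directions. Cdh22 rose in Ovgp1-BPR against Ad-BPR (7.59 ± 1.61, adjusted p = 0.0013) and Pax8-BPR (6.06 ± 1.47, adjusted p = 0.0036), and in OSE-BPR against Ad-BPR (5.81 ± 1.47, adjusted p = 0.0029) and Pax8-BPR (4.28 ± 1.33, adjusted p = 0.012). Cdh6 fell in the same 4 comparisons, with log2 differences of -6.01 and -5.18 in Ovgp1-BPR against Ad-BPR and Pax8-BPR, and -8.39 and -7.56 in OSE-BPR against Ad-BPR and Pax8-BPR. Cdh16, a kidney cadherin, fell in OSE-BPR against Ad-BPR (-10.68 ± 1.85) and Pax8-BPR (-9.14 ± 1.79), and Cdh4 rose in Ovgp1-BPR against Pax8-BPR (6.43 ± 1.23). Counts were 2 higher and 7 lower in OSE-BPR against Ad-BPR (25.1% and 24.6% of all genes), 1 higher and 5 lower in OSE-BPR against Pax8-BPR (23.4% and 23.6%), 3 higher and 3 lower in Ovgp1-BPR against Ad-BPR (17.7% and 16.9%) and against Pax8-BPR (18.1% and 17.2%), and 6 higher and 2 lower in Ovgp1-BPR against OSE-BPR (15.1% and 14.2%). Of 13 catenins and plaque genes, 1 was higher and 4 lower in Ovgp1-BPR against Pax8-BPR (18.1% and 17.2% of all genes), with Nectin2 higher (0.77 ± 0.21) and Nectin4 (-3.66 ± 0.89) and Pkp3 (-3.47 ± 0.89) lower. Of 17 TGF-beta and BMP inputs, 8 were higher and 1 lower in Ovgp1-BPR against Pax8-BPR (18.1% and 17.2% of all genes; median 0.84, against -0.03), led by Bmp7 (4.79 ± 0.71, adjusted p = 6.9e-05), which also rose in OSE-BPR against Pax8-BPR (4.19 ± 0.67), where the inputs held 5 higher and 4 lower (23.4% and 23.6%). In Ovgp1-BPR GEMM tumours against normal oviduct 9 were higher and 0 lower (15.3% and 17.3% of all genes; median 1.14, against -0.05), Bmp7 again the largest (3.68 ± 0.78).

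Markers of other cells give the setting of these values, as summed TPM over a list. Leukocyte markers (10 genes) ran from 117 to 727 in Ovgp1-BPR, 44.1 to 195 in OSE-BPR, 262 to 1060 in Pax8-BPR and 363 to 959 in Ad-BPR. Endothelial markers (8 genes) ran from 194 to 545 in Ovgp1-BPR, 159 to 286 in OSE-BPR, 108 to 269 in Pax8-BPR and 121 to 180 in Ad-BPR. Smooth muscle markers (7 genes) ran from 385 to 1060 in Ovgp1-BPR, 134 to 378 in OSE-BPR, 313 to 1320 in Pax8-BPR and 565 to 1550 in Ad-BPR, against 8390 to 11200 in oviduct and 1740 to 2220 in ovary. Markers of the surface epithelium and mesothelium (7 genes) were at 1140 to 2790 in Ovgp1-BPR and 1170 to 2170 in OSE-BPR, and at 57.5 to 670 in Pax8-BPR and 312 to 534 in Ad-BPR. Simple and secretory epithelium markers (8 genes) were at 1160 to 4520 in Ovgp1-BPR, 2050 to 4730 in OSE-BPR, 2430 to 10200 in Pax8-BPR and 5230 to 8810 in Ad-BPR. Oocyte markers reached at most 79.2 in a tumour. The part of these cells in the levels of the 10 genes was not tested.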

How the data were processed

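Total RNA of 26 tumours and 6 normal tissues was sequenced after extraction with an RNeasy mini kit, per the labels' protocols. Per the submitters' processing notes, bcl2fastq, cutadapt 1.18, STAR 2.7.0f, RSEM 1.3.1 and Picard were used with the mouse build mm10 (GRCm38). Strandedness and the annotation release are not given in the sources used here. The authors deposited RSEM expected counts per gene, not normalized, and TPM per gene, which RSEM scales by transcript length and library. The 10 genes and all lists were chosen with earlier results of these data known. Genes named besides the 10 are up to 2 called genes with the largest change in each direction of a list, and the 5 most correlated with Epcam or Zeb1. Esrp1 and Esrp2 (as examples of a list) and the simple and secretory epithelium markers were named outside this rule, after their values were seen.

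After rounding, the expected counts entered edgeR 4.0.16 (R 4.3.3) and its quasi-likelihood test (glmQLFTest) with TMM scaling, following filterByExpr (minimum count 10, total 15), adjusted over all genes tested by Benjamini-Hochberg with a threshold of 0.05. Normal tissues were fitted alone (17334 genes), tumours together (20000 genes) and tumours against normal tissue over all 32 libraries (20887 genes). Standard errors are the log2 fold change divided by the root of F. Library totals of 13987123 to 20514825 set the counting error, and SD or SE cover the spread between libraries. Correlations and spread used log2 CPM with a prior count of 2. The spread test is a two-sided exact permutation test. Simulated data were used to test the edgeR steps of the tumour fit, in Ovgp1-BPR against OSE-BPR, and the spread test. The other procedures were not tested in this way. Alternatives were DESeq2 1.42.0, limma 3.58.1 on log2(TPM + 0.1) and log2(TPM + 1), no filter, other sample sets, and leaving out each library. Lists were epithelial regulators, mesenchymal factors, other cadherins, catenins and plaque genes, TGF-beta and BMP inputs, and markers of fibroblasts, endothelium, leukocytes, smooth muscle, granulosa and related cells, oocytes, ciliated cells, simple and secretory epithelium, and surface epithelium.

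Oviduct and ovary of the same number come from 1 animal per the labels, and the correlations of their deviations were -0.084, -0.044 and 0.06. Other replicate numbers follow accession order and pair nothing. No 2 libraries of a group agreed within counting noise (39 pairs, lowest chi-square per degree of freedom 10.1). Nothing in the labels says whether allografts came from separate tumours, so p-values may in part measure technical spread.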

Additional observations from a re-analysis of the deposited data

Results flagged for a closer look

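Dixon's ratio was tested for each of the 10 genes in each group of 4 or 5 libraries. Of these 30 tests, 3 flagged a library far from the others, where chance flags about 5%. Cdh1 was at 297 CPM in Pax8-BPR GEMM replicate 2, against 1180 to 1300 CPM in the other 3 GEMM tumours. Vim was at 771 CPM in Pax8-BPR GEMM replicate 1, against 343 to 368 CPM in the others. Epcam was at 1020 CPM in Ad-BPR allograft replicate 3, against 798 to 831 CPM in the others.

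The effect of tumour against normal oviduct differed between models for several genes, by a test of the difference itself in the fit of 32 libraries (edgeR, adjusted over all genes). As all models share the oviduct libraries, each value equals the difference between the GEMM tumours of 2 models. For Ovgp1-BPR minus Pax8-BPR, Cdh1 differed by -3.77 ± 1.31 on the log2 scale (adjusted p = 0.033) and Epcam by -3.72 ± 1.24 (0.028). In the same contrast Zeb1 differed by 1.44 ± 0.36 (0.0058), Snai1 by -1.87 ± 0.69 (0.044) and Snai2 by 1.46 ± 0.46 (0.022). Grhl2, at -3.54 ± 1.46 (0.070), did not pass, but every Ovgp1-BPR GEMM tumour lay below oviduct and every Pax8-BPR GEMM tumour above it. For Ovgp1-BPR minus Ad-BPR, Cdh2 differed by 4.15 ± 1.13 (adjusted p = 0.016). Cdh1, at -3.87 ± 1.40 (0.060), and Grhl2, at -3.68 ± 1.57 (0.11), did not pass, with every tumour of each model on its own side of oviduct.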

How the results depend on the processing

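Of 697 single-gene results recomputed without 1 library, 609 kept their call, 73 lost and 15 gained it, and 0 reversed. Of 355 under other alternatives, 298 kept it, 20 lost and 37 gained it, and 0 reversed. Of 109 counts of called genes under those alternatives, 98 stayed within 1.5 times. DESeq2 gave no p-value for Cdh1 and Grhl2 in the fit of tumours. Those results are not among the 355, and in the counts of called genes they stand as not called. For Ad-BPR GEMM tumours against oviduct (2 called), 1 was called without the filter (4048 of all 35534 genes). In a fit of only the groups compared, 9 were called (8483 of all 17965 genes). For Ovgp1-BPR GEMM tumours against oviduct (0 called), limma on log2(TPM + 1) called 1 (7637 of all 20887 genes) and the fit of only those groups 2 (7185 of all 17108 genes). A fit of only the groups compared called 3 in Ovgp1-BPR against Ad-BPR (6 otherwise), with 6876 of all 18318 genes. It called 5 in Pax8-BPR GEMM tumours against oviduct (2 otherwise), with 5651 of all 17635 genes. DESeq2 called 1 in Pax8-BPR allografts against GEMM tumours (0 by edgeR). The fit of all 32 libraries called 2 in oviduct against ovary (8 otherwise). In the spread test (1 called), log2(TPM + 1) called 2, and deviations from the median of model and kind called 0, where the exact p is limited as described above. The cause was not tested. With the replicate block of animals, 8 genes were called in oviduct against ovary, as without it, and no call changed.

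Leaving out each library in turn called 0 to 2 genes in Ad-BPR GEMM tumours against oviduct, 0 to 3 in Ovgp1-BPR GEMM tumours against oviduct, 2 to 2 in Pax8-BPR GEMM tumours against oviduct, 1 to 5 in OSE-BPR GEMM tumours against ovary, and 7 to 9 in oviduct against ovary. It called 2 to 4 in Ovgp1-BPR against OSE-BPR, 2 to 6 against Ad-BPR and 4 to 7 against Pax8-BPR, 3 to 6 in OSE-BPR against Ad-BPR and 6 to 7 against Pax8-BPR, 7 to 8 for any model difference, and 0 to 2 in the spread test. For the edgeR fits without 1 library, shares over all genes are not given here. A change in these counts therefore cannot be set against all genes. Epcam lost its call in the spread test only without an Ovgp1-BPR tumour, where the exact p is limited as described above. Over all genes, limma on log2(TPM + 1) moved the share of calls that were higher by over 10 percentage points: to 42.4% in oviduct against ovary (53.8% by edgeR), 62.9% in Ovgp1-BPR against Ad-BPR (51.2%), 69.2% in Ovgp1-BPR against Pax8-BPR (51.3%), 60.8% in OSE-BPR against Ad-BPR (50.5%), 64.5% in OSE-BPR against Pax8-BPR (49.7%) and 29.2% in Pax8-BPR against Ad-BPR (69.2%). On log2(TPM + 0.1), the median of all genes moved most in OSE-BPR against Pax8-BPR (0.24, against 0.014 by edgeR) and Ovgp1-BPR against Pax8-BPR (0.213, against -0.026). Grhl2, at 0 to a few counts in several libraries, is limited by depth there.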
